A study of Mus musculus with 15 samples.

Results

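Ubd encodes FAT10, a ubiquitin-like protein, and was described here in mouse periprostatic fat together with the immunoproteasome genes Psmb8, Psmb9, Psmb10, Psme1 and Psme2. The 6 genes were taken by their symbols from the 23995 symbols in the deposited expression files, and all 6 were among the 5625 genes expressed highly enough to be tested. Ubd was chosen by its expression values, as one of the genes with the largest difference between HFD placebo and LFD mice, so the values of the 6 genes in that comparison are given as a description, without a test. The other 5 genes were chosen for their function.

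RNA of the fat around the prostate was sequenced from 15 male C57BL/6 mice aged 26 weeks, 5 in each of 3 groups. The HFD estradiol mice were on a diet high in fat (60 kcal%) and bore a pellet of 0.25 mg 17beta-estradiol, an estrogen, made to release over 60 days. The HFD placebo mice were on the same diet and bore a placebo pellet. The LFD mice were on a diet low in fat (10 kcal%) and had no pellet, so diet and pellet placement differ together between LFD and the other groups. The mice started their diets at an age of 6 weeks, and those given pellets received them 12 weeks later and kept them for 8 weeks. The tissue is whole fat, in which fewer cells of a type and less RNA per cell cannot be told apart.

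FAT10 is joined to target proteins by the enzymes Uba6 and Ube2z and delivers them to the proteasome for degradation. The proteasome is a barrel-shaped protease with 3 catalytic subunits, Psmb5, Psmb6 and Psmb7. When interferon gamma acts on a cell, newly made barrels receive Psmb8 in place of Psmb5, Psmb9 in place of Psmb6 and Psmb10 in place of Psmb7, and such a barrel is called the immunoproteasome. Psme1 and Psme2 form a ring that caps the barrel and opens it. Interferon gamma and tumor necrosis factor are the known inducers of Ubd, and the peptides that immunoproteasomes cut are loaded on MHC class I molecules.

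GENCODE vM21, on the assembly GRCm38 that mm10 represents, lists all 6 as protein-coding genes. Ubd lies on chromosome 17 at 37193892 to 37196095 on the plus strand. Psmb8 lies on the same chromosome at 34197721 to 34201454 on the plus strand, and Psmb9 at 34181987 to 34187764 on the minus strand. These immunoproteasome genes alternate with the peptide transporter genes Tap1 and Tap2 in a stretch of 34335 bases inside the MHC region, and Ubd starts 2977570 bases beyond the end of Tap2. Psme1, on chromosome 14 at 55578123 to 55581529, and Psme2, at 55587441 to 55591113 on the opposite strand, are separated by 5911 bases. Psmb10 stands alone on chromosome 8 at 105935735 to 105938444 on the minus strand.

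The promoter sequences are shown because the known inducers of these genes act through factors with published recognition motifs. RefSeq promoter windows of GRCm38.p6, running from 250 bases before to 50 bases after each gene's start, were found for all 6 genes and searched on both strands. The Ubd sequence below is the 250 bases before its start, chr17:37193642-37193891 on the plus strand, with a match to the NF-kB consensus in capitals. NF-kB is the factor activated by tumor necrosis factor. The Psme1 sequence is a stretch of 30 bases, chr14:55578493-55578522 on the plus strand, with a match on the other strand to the core of the interferon-stimulated response element, GAAA and GAAA with any 2 bases between them, in capitals.
Ubd: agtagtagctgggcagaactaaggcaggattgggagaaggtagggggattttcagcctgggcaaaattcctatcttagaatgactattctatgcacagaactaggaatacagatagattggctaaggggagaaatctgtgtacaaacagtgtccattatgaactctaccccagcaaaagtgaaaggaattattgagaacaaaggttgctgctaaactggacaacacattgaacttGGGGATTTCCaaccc
Psme1: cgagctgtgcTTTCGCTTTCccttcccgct

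Of the 4 motifs named here, these 2 matches were found in the windows of the 6 genes. Counted from the RefSeq start, the first capital lies at position -15 in Ubd and 10 in Psme1. For Ubd that start is the one GENCODE gives, and for Psme1 it lies 371 bases beyond the GENCODE start of the gene. Of all 32851 promoter windows of the table, 4.51% held the NF-kB consensus and 3.44% the interferon-stimulated response element core. The PU.1 core GAGGAAGT, present in 3.20% of windows, and the estrogen response element, GGTCA and TGACC with any 3 bases between them, present in 0.0700%, had no match in the windows of the 6 genes. A match is a stretch of letters and no evidence of binding in this tissue.

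Values are FPKM (the number of sequenced fragments divided by transcript length and library size), divided by a factor per library that brings the libraries to a common scale. Summed over genes, FPKM came to 37561 to 60725 in HFD estradiol libraries, 34544 to 105910 in HFD placebo libraries and 34449 to 38755 in LFD libraries. The files hold no counts, and the spacing of the lowest values put a scaled FPKM of 1 in a transcript of 1 kilobase at an estimated 20.4 to 53.9 fragments in HFD estradiol, 19.4 to 122 in HFD placebo and 11.4 to 22.1 in LFD libraries. The labelled tissue carried its markers: the 8 adipocyte markers summed to 1202 to 1721 scaled FPKM in HFD estradiol, 852 to 1418 in HFD placebo and 1226 to 1842 in LFD. All HFD estradiol libraries were on sequencing lane 6 and all LFD libraries on lane 5, whereas HFD placebo libraries 1 to 3 were on lane 5 and 4 and 5 on lane 6. Group and lane therefore cannot be told apart between HFD estradiol and LFD.

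Ubd was high in the fat of HFD placebo mice, much lower in HFD estradiol mice and barely detected in LFD mice. In HFD estradiol mice 1 to 5 its scaled FPKM was 1.48, 0.771, 1.32, 1.12 and 3.28. In HFD placebo mice 1 to 5 it was 10.1, 13.4, 12.4, 15.0 and 14.7. In LFD mice 1 to 5 it was 0.175, 0.453, 0.166, 0.429 and 0.252. The 3 groups did not overlap: every HFD estradiol mouse lay below every HFD placebo mouse and above every LFD mouse, and HFD estradiol mouse 5 was the highest of its group.

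**Figure D1:**
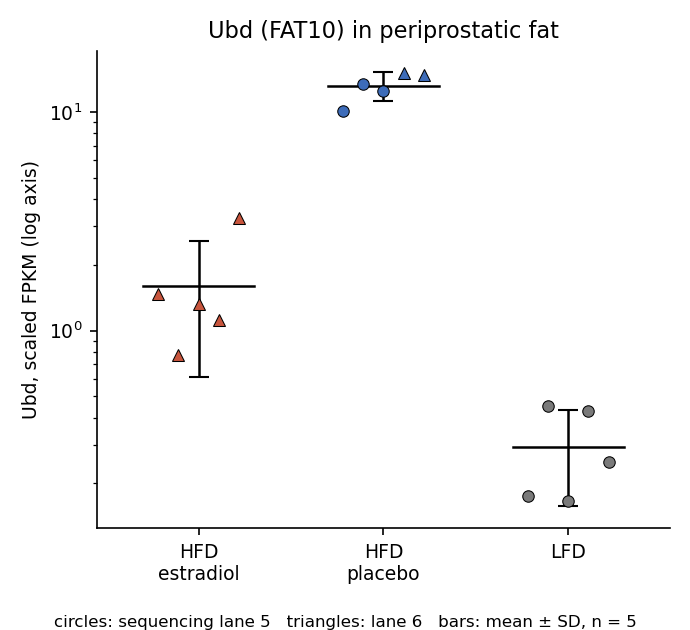
Scaled FPKM of Ubd on a log axis in HFD estradiol, HFD placebo and LFD mice. Each point is 1 mouse, circles are libraries of lane 5 and triangles of lane 6, and bars show mean ± SD (n = 5); the 5 HFD placebo points sit between 10.1 and 15.0, above every HFD estradiol and LFD point.

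The mean level of Ubd was 1.59 ± 0.980 scaled FPKM in HFD estradiol and 13.1 ± 1.99 in HFD placebo (SD, n = 5 each), a ratio of means of 0.121. On the log2(scaled FPKM + 1) scale the difference, HFD estradiol minus HFD placebo, was -2.50 with a standard error of 0.18 and a 95% interval from -2.89 to -2.12 (limma, adjusted p = 8.1e-07). This was the third most negative difference among the 5625 tested genes. It shares the HFD placebo libraries by which Ubd was chosen, so it is not independent of that choice. Ubd reached a scaled FPKM of 1 in 5 HFD placebo, 4 HFD estradiol and 0 LFD libraries, and testing needed 5 libraries. Without the HFD placebo libraries, where it was high, Ubd would not have been tested, so its call is not independent of that rule. In lane 6 alone, where 5 HFD estradiol libraries met 2 HFD placebo libraries, the difference was -2.68 (limma, adjusted p = 0.0027).

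Between HFD estradiol and LFD, whose mean was 0.295 ± 0.138 (SD, n = 5), Ubd was higher by 0.94 on the log2(scaled FPKM + 1) scale, with a standard error of 0.18 and a 95% interval from 0.56 to 1.32 (limma, adjusted p = 0.0046). This comparison shares the LFD libraries by which Ubd was chosen, so it is not independent of that choice either. Nor is it independent of the level needed for testing, which Ubd met only through the HFD placebo libraries. The ratio of mean scaled FPKM was 5.40. This difference did not pass with lane as a further term, where it was 0.64 (adjusted p = 0.26), nor on FPKM as deposited, where it was 1.14 (adjusted p = 0.13). The LFD values also rest on few fragments, an estimated 1.89 to 5.66 per library for Ubd, against 23.8 to 58.1 in HFD estradiol and 144 to 1341 in HFD placebo libraries.

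As a description of the diet comparison, the mean of Ubd in HFD placebo was 44.5 times that in LFD, a difference of 3.44 on the log2(scaled FPKM + 1) scale, the third highest of the tested genes.

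Psmb8, the immunoproteasome subunit that takes the place of Psmb5, differed far less between the groups than Ubd. Its scaled FPKM was 2.12, 1.87, 2.29, 1.94 and 2.13 in HFD estradiol mice 1 to 5, 2.19, 2.35, 3.62, 4.14 and 2.30 in HFD placebo mice 1 to 5, and 1.88, 1.41, 1.71, 1.57 and 1.90 in LFD mice 1 to 5. HFD placebo mice 3 and 4 stood above the rest, the other 3 HFD placebo mice lay close to the HFD estradiol mice, and every HFD placebo mouse was above every LFD mouse. The means were 2.07 ± 0.167 in HFD estradiol, 2.92 ± 0.898 in HFD placebo and 1.69 ± 0.207 in LFD (SD, n = 5 each).

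HFD estradiol minus HFD placebo was -0.33 for Psmb8 on the log2(scaled FPKM + 1) scale, with a 95% interval from -0.58 to -0.08, and it passed the threshold of 0.05 narrowly (limma, adjusted p = 0.047). The call was lost in 11 of the 15 fits that left out a library, with adjusted p up to 0.13: on leaving out any HFD estradiol library, HFD placebo 3 or 4, or LFD 1, 3, 4 or 5. It was also lost in lane 6 alone, where the difference was -0.43 (adjusted p = 0.11). HFD estradiol minus LFD was 0.19, with an interval from -0.06 to 0.44 (adjusted p = 0.37). HFD placebo minus LFD was 0.52.

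Psmb9, which takes the place of Psmb6, averaged 1.34 ± 0.082 in HFD estradiol, 1.25 ± 0.735 in HFD placebo and 0.987 ± 0.457 in LFD (SD, n = 5 each). HFD estradiol mice 1 to 5 had 1.39, 1.22, 1.33, 1.31 and 1.44 scaled FPKM, HFD placebo mice 1 to 5 had 0.320, 1.17, 1.57, 2.28 and 0.890, and LFD mice 1 to 5 had 0.841, 0.817, 1.80, 0.774 and 0.706. HFD placebo held both the lowest and the highest value of the 15 libraries, and all 3 groups overlapped. HFD estradiol minus HFD placebo was 0.12, with a 95% interval from -0.28 to 0.52 (limma, adjusted p = 0.67), and its sign turned with lane as a term, on FPKM as deposited and without HFD placebo mouse 1. HFD estradiol minus LFD was 0.26, with an interval from -0.14 to 0.66 (adjusted p = 0.46), and its sign also turned with lane as a term. Psmb9 and Tap1 share 212 bases on opposite strands, and the sources used here do not give whether the counting used strand, so reads of that stretch may have been assigned to either.

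Psmb10, which takes the place of Psmb7, followed Psmb8 in its order of means. Its scaled FPKM was 2.18, 2.24, 1.77, 1.90 and 2.04 in HFD estradiol mice 1 to 5, 1.77, 1.84, 3.10, 3.12 and 2.10 in HFD placebo mice 1 to 5, and 1.92, 1.83, 1.23, 1.60 and 1.23 in LFD mice 1 to 5. HFD placebo mice 3 and 4 were again the highest, and all groups overlapped. The means were 2.03 ± 0.196 in HFD estradiol, 2.38 ± 0.671 in HFD placebo and 1.56 ± 0.324 in LFD (SD, n = 5 each). HFD estradiol minus HFD placebo was -0.14, with a 95% interval from -0.39 to 0.11 (limma, adjusted p = 0.40), and HFD estradiol minus LFD was 0.25, with an interval from -0.0043 to 0.50 (adjusted p = 0.25). HFD placebo minus LFD was 0.39.

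Psme1, a subunit of the activating cap, had the highest level of the 6 genes per length of transcript in HFD estradiol and LFD. Its scaled FPKM was 7.24, 8.34, 9.62, 7.28 and 10.0 in HFD estradiol mice 1 to 5, 7.73, 8.20, 9.06, 10.6 and 7.82 in HFD placebo mice 1 to 5, and 9.28, 9.54, 9.54, 7.96 and 8.22 in LFD mice 1 to 5. The 3 groups covered nearly the same range. HFD estradiol minus HFD placebo was -0.03, with a 95% interval from -0.25 to 0.19 (limma, adjusted p = 0.87), HFD estradiol minus LFD was -0.07, with an interval from -0.29 to 0.16 (adjusted p = 0.75), and HFD placebo minus LFD was -0.04. The first sign turned on leaving out single libraries, and the others turned under other scalings.

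Psme2, the partner of Psme1 in the cap, had 2.05, 2.04, 2.11, 1.37 and 1.86 scaled FPKM in HFD estradiol mice 1 to 5, 2.35, 1.79, 2.51, 2.79 and 1.75 in HFD placebo mice 1 to 5, and 1.78, 2.22, 1.53, 1.99 and 2.66 in LFD mice 1 to 5. The groups overlapped throughout. HFD estradiol minus HFD placebo was -0.16, with a 95% interval from -0.40 to 0.08 (limma, adjusted p = 0.31), HFD estradiol minus LFD was -0.07, with an interval from -0.31 to 0.17 (adjusted p = 0.78), and HFD placebo minus LFD was 0.09. The sign against LFD of HFD estradiol turned under other scalings. Psme2b on chromosome 11 is a near-identical copy, listed at 3.66 ± 0.431 in HFD estradiol, 4.48 ± 0.873 in HFD placebo and 2.99 ± 0.511 in LFD (SD, n = 5 each). The sources used here do not give how reads common to the pair were divided, so the values of Psme2 are uncertain.

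**Figure D2:**
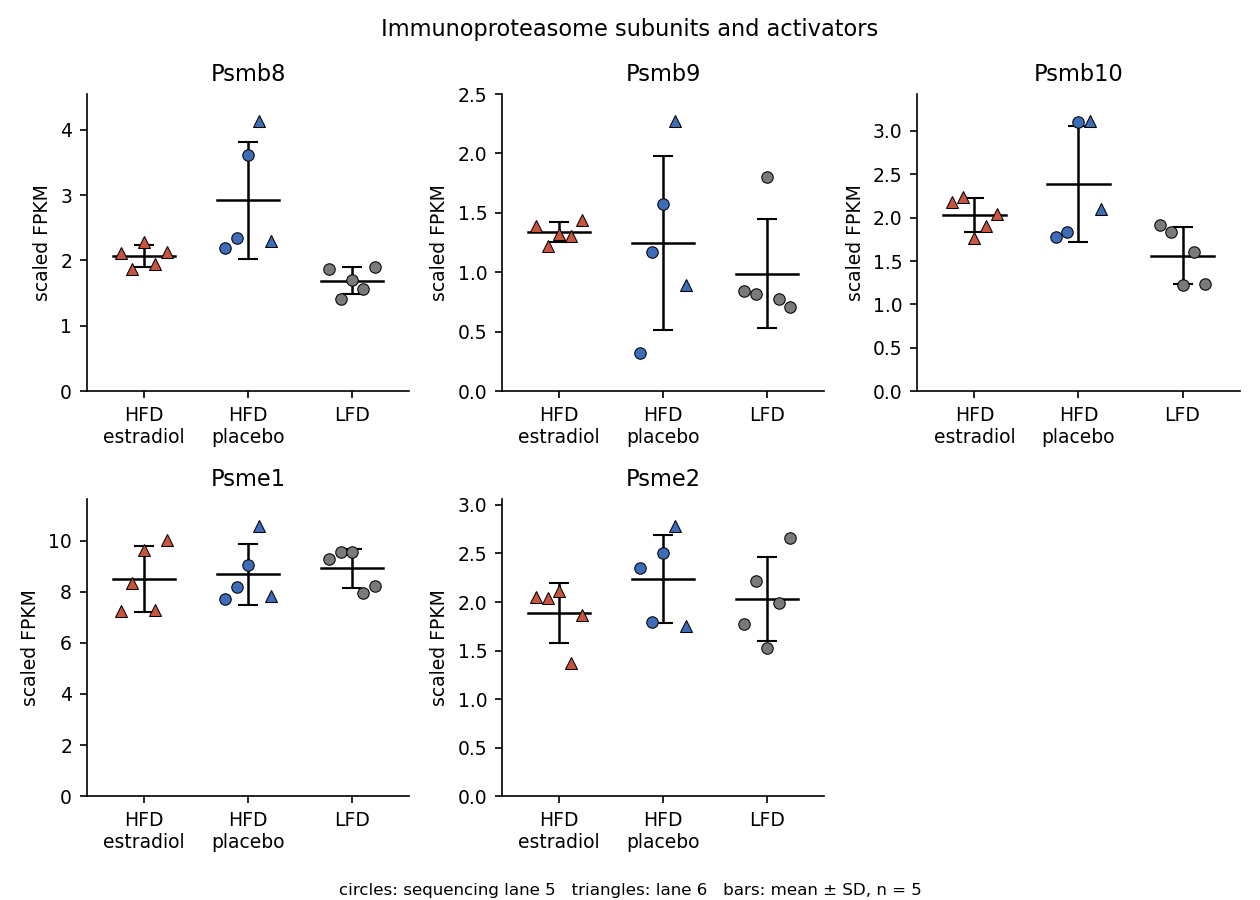
Scaled FPKM of the 3 catalytic immunoproteasome subunits (top) and the 2 cap subunits (bottom) in HFD estradiol, HFD placebo and LFD mice, each panel with its own axis starting at 0. Points are mice, circles lane 5 and triangles lane 6, and bars are mean ± SD (n = 5); HFD placebo mice 3 and 4 are the highest points for Psmb8 (3.62 and 4.14) and Psmb10 (3.10 and 3.12).

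Counted over the 6 genes, 2 of 6 passed in HFD estradiol minus HFD placebo, Ubd and Psmb8, both lower in HFD estradiol. In this comparison 30.4% of all tested genes passed, 16.1% in the lower direction, so the share of the 6 was near that of all genes. In HFD estradiol minus LFD 1 of 6 passed, Ubd, which was higher in HFD estradiol, against 7.7% of all tested genes in either direction and 3.96% higher. In HFD placebo minus LFD, the comparison that chose Ubd, 43.2% of all tested genes passed in either direction and 21.3% higher, and the 6 genes are not counted. Groups did not overlap for Ubd alone in HFD estradiol minus HFD placebo, where this held for 21.2% of tested genes (11.2% lower), and for Ubd alone in HFD estradiol minus LFD, where it held for 8.07% (4.21% higher). In HFD placebo minus LFD they did not overlap for Psmb8, given as a description, where this held for 27.6% (14.6% higher). The same was true of Ubd, but its rise there was the reason for its choice, so this is no result. The comparisons share groups, so they are not independent of each other. Each also shares libraries with the choice of Ubd, so the counts that include Ubd are not independent of that choice. They also depend on the level needed for testing, which Ubd met only through the HFD placebo libraries.

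**Figure D3:**
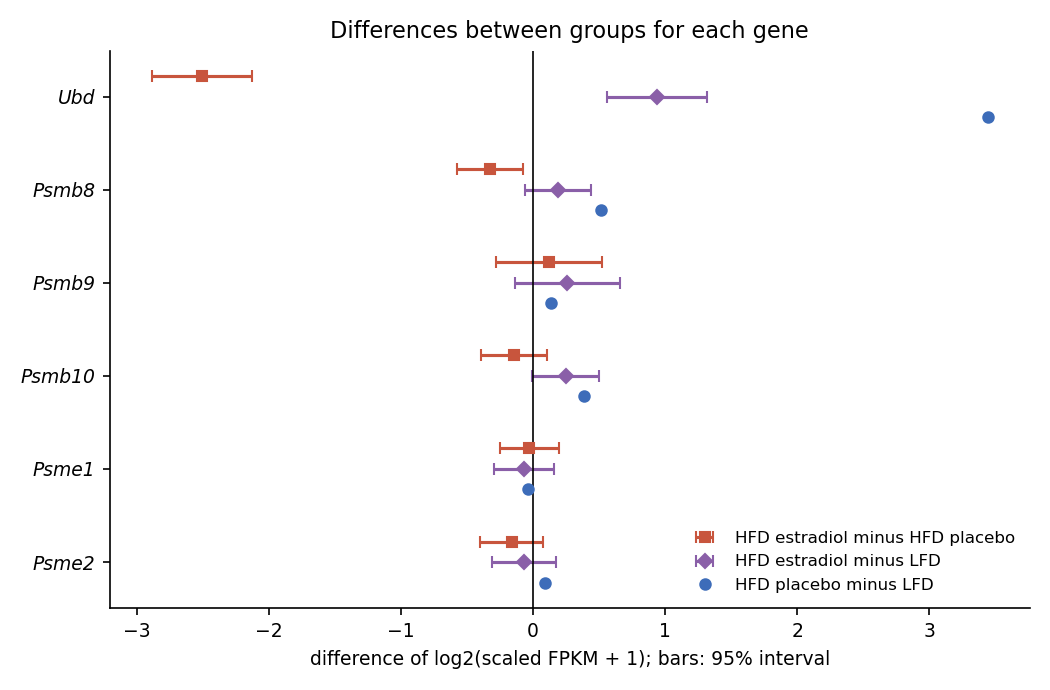
Difference between groups in log2(scaled FPKM + 1) for Ubd and the 5 immunoproteasome genes. Squares are HFD estradiol minus HFD placebo and diamonds HFD estradiol minus LFD, both with 95% intervals from limma, and circles are HFD placebo minus LFD, the comparison that chose Ubd, drawn without an interval; Ubd lies at -2.50, 0.94 and 3.44, and every point of the other 5 genes lies between -0.33 and 0.52.

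The balance between the immunoproteasome and the constitutive barrel was measured as the ratio of each catalytic subunit to the one it replaces, within each library, which needs no scaling between libraries. Psmb8 to Psmb5 averaged 1.00 ± 0.230 in HFD estradiol, 1.23 ± 0.393 in HFD placebo and 0.854 ± 0.232 in LFD (SD, n = 5 each), with overlapping groups. The log2 ratio differed by -0.27 between HFD estradiol and HFD placebo (exact permutation test, two-sided, p = 0.34, adjusted over 6 ratio tests 0.37) and by 0.24 between HFD estradiol and LFD (exact p = 0.37, adjusted 0.37). The first was -0.11 without HFD placebo mouse 3, -0.14 without HFD estradiol mouse 2 and -0.15 in lane 6 alone, and the second was 0.12 without LFD mouse 4.

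Psmb9 to Psmb6 was 0.258, 0.191, 0.197, 0.201 and 0.194 in HFD estradiol mice 1 to 5, 0.0426, 0.128, 0.166, 0.306 and 0.114 in HFD placebo mice 1 to 5, and 0.114, 0.108, 0.268, 0.131 and 0.122 in LFD mice 1 to 5. HFD estradiol mice lay above 4 of 5 mice in each other group, while HFD placebo mouse 4 and LFD mouse 3 lay above all of them. The log2 ratio was higher in HFD estradiol by 0.72 than in HFD placebo (exact permutation test, two-sided, p = 0.15, adjusted 0.30) and by 0.57 than in LFD (exact p = 0.048, adjusted 0.14), and neither passed the adjusted threshold. Leaving out HFD placebo mouse 4 made the first difference 1.04 and leaving out LFD mouse 3 made the second 0.80, each with an adjusted exact p of 0.024. These mice are named after seeing the data. Each was the only one of its group above the HFD estradiol mice, so its removal ended the overlap. The first difference was 0.33 without HFD placebo mouse 1 (adjusted exact p = 0.32), 0.43 with a pseudocount of 1 (0.24) and 0.15 in lane 6 alone (0.71), and the second was 0.29 with a pseudocount of 1 (0.24).

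Psmb10 to Psmb7 was 0.489, 0.331, 0.297, 0.297 and 0.315 in HFD estradiol mice 1 to 5, 0.326, 0.364, 0.512, 0.458 and 0.342 in HFD placebo mice 1 to 5, and 0.258, 0.222, 0.176, 0.268 and 0.219 in LFD mice 1 to 5. Every HFD estradiol mouse was above every LFD mouse. That difference in log2 ratio was 0.58 (exact permutation test, two-sided, p = 0.0079, the smallest that 5 against 5 can give, adjusted 0.048). Without HFD estradiol mouse 1, the highest of its group, it was 0.45 with an adjusted exact p of 0.095. Group and lane differ together between HFD estradiol and LFD, so no check of this difference within a lane was possible. Between HFD estradiol and HFD placebo the difference was -0.22 (exact p = 0.21, adjusted 0.32).

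**Figure D4:**
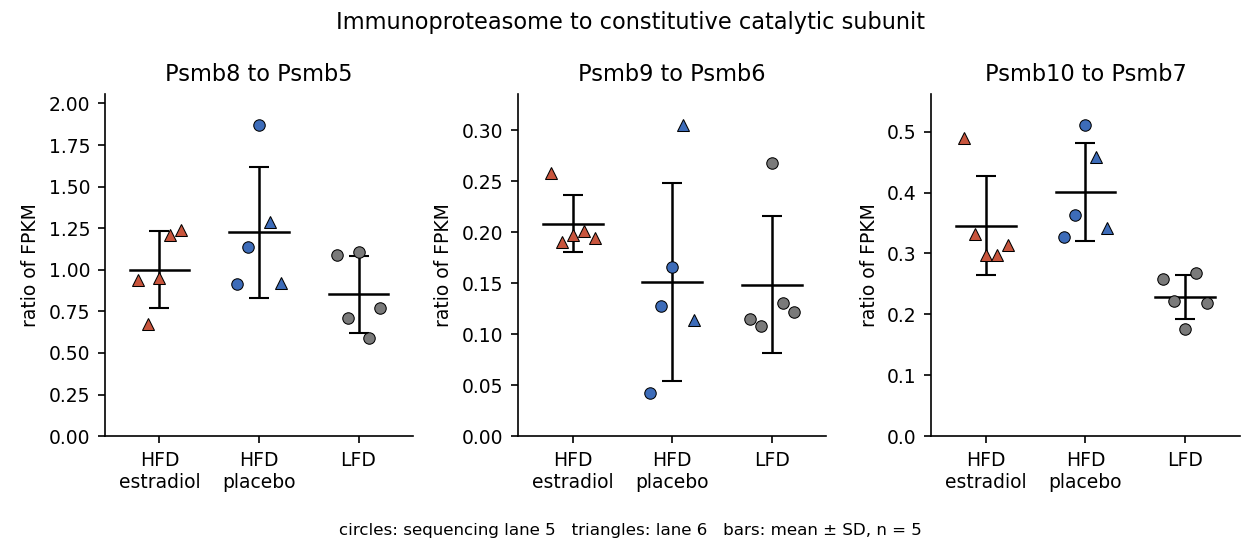
Ratio of FPKM of each immunoproteasome catalytic subunit to the constitutive subunit it replaces, within each library, for HFD estradiol, HFD placebo and LFD mice. Points are mice, circles lane 5 and triangles lane 6, bars are mean ± SD (n = 5) and axes start at 0; for Psmb10 to Psmb7 the HFD estradiol points, 0.297 to 0.489, lie above the LFD points, 0.176 to 0.268.

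Of the constitutive subunits, Psmb6 was lower in HFD estradiol, at 6.48 ± 0.727, than in HFD placebo, at 8.28 ± 0.961 scaled FPKM (SD, n = 5 each), a difference of -0.31 on the log2(scaled FPKM + 1) scale (limma, adjusted p = 0.024). That call was lost without HFD placebo mouse 2 or 3 or HFD estradiol mouse 1, with adjusted p up to 0.066, and in lane 6 alone, where the difference was -0.21 (adjusted p = 0.29). Psmb5 differed by -0.12 (adjusted p = 0.52) and Psmb7 by 0.02, a sign that turned under other scalings and with lane as a term. Of the 14 genes of the constitutive barrel, Psmb6 alone passed, with a median difference of -0.05 for the list against 0.01 for all tested genes, of which 16.1% passed in the lower direction. None of the 14 passed in limma in HFD estradiol minus LFD, with 1 at an unadjusted p under 0.05.

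Around Ubd, the list of FAT10-conjugating and FAT10-binding proteins had 6 of 10 genes tested, of which 1 fell and none rose in HFD estradiol relative to HFD placebo. That is near the 16.1% of all tested genes that were lower there. The gene was Sqstm1, the autophagy receptor p62, which binds FAT10. It had 11.3, 10.3, 10.5, 11.4 and 10.4 scaled FPKM in HFD estradiol mice 1 to 5, against 16.6, 14.4, 14.0, 14.0 and 14.7 in HFD placebo mice 1 to 5, with no overlap, a difference of -0.41 (limma, adjusted p = 5e-04). In lane 6 alone it was -0.38 (adjusted p = 0.051). Ube2z, the conjugating enzyme of FAT10, differed by -0.10 and Vcp, an unfolding ATPase, by 0.09, and neither passed. None of the 6 passed in limma in HFD estradiol minus LFD, with 0 at an unadjusted p under 0.05.

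Of the known inducers, tumor necrosis factor (Tnf) was below the tested level. Its scaled FPKM was 0.034 to 0.057 in HFD estradiol, 0.137 to 0.904 in HFD placebo and 0 to 0.061 in LFD, so that HFD placebo did not overlap the other groups. Interferon gamma (Ifng) was at or near 0 in all groups, and the 12 T and NK cell markers summed to 0.561 to 1.02 in HFD estradiol, 0.327 to 2.00 in HFD placebo and 0.544 to 1.96 in LFD. Of the 15 tested genes in the list of inducing cytokines, receptors and factors, 5 fell and none rose in HFD estradiol relative to HFD placebo, where 16.1% of all tested genes were called lower and 30.4% in either direction. They were Irf8 (-0.80) and Spi1 (-1.27), transcription factors of myeloid cells, the interferon gamma receptor genes Ifngr1 (-0.25) and Ifngr2 (-0.62), and the tumor necrosis factor receptor gene Tnfrsf1b (-0.89), of which Ifngr1 had the highest adjusted p of limma, 0.015. In lane 6 alone Ifngr1 was -0.27 (adjusted p = 0.076), no longer called, and the other 4 kept their calls. Testing needed a scaled FPKM of 1 in 5 libraries. Irf8 reached it in the HFD placebo libraries alone, and Tnfrsf1b in these and 1 HFD estradiol library. Both were tested only through the group where they were high, so their lower calls are not independent of that rule. The list's median was -0.15. None of the 15 passed in limma in HFD estradiol minus LFD, with 2 at an unadjusted p under 0.05.

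The downstream genes differed between lists. In the MHC class I antigen processing list 4 of 12 tested genes fell and none rose in HFD estradiol relative to HFD placebo, with a list median of -0.18, against 16.1% of all tested genes called lower and a median of 0.01. They were the MHC class I heavy chain genes H2-K1 (-0.54) and H2-D1 (-0.45), which have near-identical relatives and are therefore uncertain, and the chaperone genes Calr (-0.38) and Canx (-0.24). Their adjusted p of limma ran from 0.0057 to 0.024. In lane 6 alone H2-K1 kept its call. H2-D1 was -0.57 there (adjusted p = 0.059), Calr -0.23 (0.32) and Canx -0.14 (0.43), none of them called, and Canx also lost its call without HFD placebo mouse 1, 2 or 5 or HFD estradiol mouse 3 or 5. In HFD estradiol minus LFD 1 of the 12 passed, the aminopeptidase gene Npepps, which fell by 0.24 (limma, adjusted p = 0.017), where 7.7% of all tested genes were called. In the list of interferon-induced genes none of 12 tested genes passed in HFD estradiol minus HFD placebo or in HFD estradiol minus LFD, with list medians of -0.08 and -0.03, and 2 and 1 genes had an unadjusted p under 0.05 in limma. On leaving out a library, the first of these medians ran from -0.14 to 0.051. Psme4, another proteasome activator, fell by 0.22 relative to HFD placebo (limma, adjusted p = 0.018) and by 0.27 in lane 6 alone (adjusted p = 0.090), and the other 3 tested activator and assembly genes, Psme3, Pomp and Psmg1, did not pass.

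Most macrophage markers fell, as Ubd did, in HFD estradiol relative to HFD placebo. Of 9 tested markers, 6 fell and 1, Cd163, rose in HFD estradiol relative to HFD placebo, where 30.4% of all tested genes were called and 16.1% were lower. The median of the 9 was -0.71, and the 10 markers found summed to 49.2 to 129 scaled FPKM in HFD estradiol, 118 to 378 in HFD placebo and 38.6 to 102 in LFD, with none at 0. In HFD estradiol minus LFD 2 of the 9 were called higher and none lower, against 3.96% of all tested genes called higher. The sums of HFD estradiol and LFD overlapped. Relative to HFD placebo, other immune markers called lower in HFD estradiol were Itgax, of dendritic cells and macrophages (-1.71), and S100a8, of neutrophils (-1.67). Called higher were 3 of 5 adipose progenitor, 1 of 6 endothelial and 1 of 4 smooth muscle and pericyte markers. Of all 5625 tested genes, 807 were called higher in HFD estradiol minus HFD placebo. Itgax reached a scaled FPKM of 1 in 5 HFD placebo, 1 HFD estradiol and 0 LFD libraries. The macrophage marker Cd14 did so in 4 HFD placebo, 0 HFD estradiol and 2 LFD libraries. The 4 neutrophil markers found, S100a8 among them, summed to at most 0.902 in HFD estradiol, with a median of 0.711 in LFD. Without the HFD placebo libraries, where they were high, Itgax, Cd14 and S100a8 would not have been tested. Of the 8 adipocyte markers 6 rose, against the 807 of 5625 tested genes called higher. One adipocyte marker fell, the leptin gene Lep, at 26.5 ± 6.88 scaled FPKM in HFD estradiol and 53.1 ± 7.69 in HFD placebo (SD, n = 5 each). Within groups, the mice with the most Ubd were not those with the most macrophage marker RNA. HFD placebo mouse 4 had the highest Ubd, 15.0, and the lowest Cd68 of its group, 16.3 against 28.1 to 43.9 in the other 4. HFD estradiol mouse 5 had the highest Ubd of its group, 3.28, and the lowest Cd68, 4.80, while mouse 1 had the highest Cd68, 10.4, with a Ubd of 1.48. Correlations of within-group deviations of Ubd with the 10 markers ran from -0.67 to 0.16 over the 15 libraries. The part of macrophages in the differences of Ubd was not tested.

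Of the 6 genes, Psmb8 and Psmb9 had the highest within-group correlations with interferon-induced genes, and Ubd and Psme2 the lowest. Deviations of Psmb8 from its group means correlated with those of the 12 tested interferon-induced genes with a median Pearson r of 0.76 and a range of 0.56 to 0.88 over the 15 libraries, and those of Psmb9 with a median of 0.76 and a range of 0.49 to 0.86. The median was 0.51 for Psmb10, 0.62 for Psme1, 0.21 for Psme2 and 0.18 for Ubd, whose range was -0.33 to 0.53. Psmb8 and Psmb9 correlated with each other with r = 0.70, and Ubd correlated with the 5 other genes with r of 0.04 to 0.42. These correlations are descriptions over libraries that share lanes and depth. Those of Ubd include LFD values resting on an estimated 1.89 to 5.66 fragments, and those of Psme2 rest on values made uncertain by Psme2b. Whether this lowers their correlations was not tested. HFD placebo mouse 4, on lane 6 and with the highest FPKM sum, stood apart. In that mouse Gbp2, an interferon-induced GTPase, was 8.96, against 2.60 to 5.73 in the other HFD placebo mice, and the chemokine gene Cxcl9 was 5.87, against 0.549 to 2.06. Without it, a choice made after seeing the data, the medians over the 14 other libraries were 0.52 for Psmb8, 0.68 for Psmb9, 0.26 for Psmb10, 0.39 for Psme1, -0.08 for Psme2 and 0.04 for Ubd, and Psmb8 and Psmb9 correlated with r = 0.51.

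**Figure D5:**
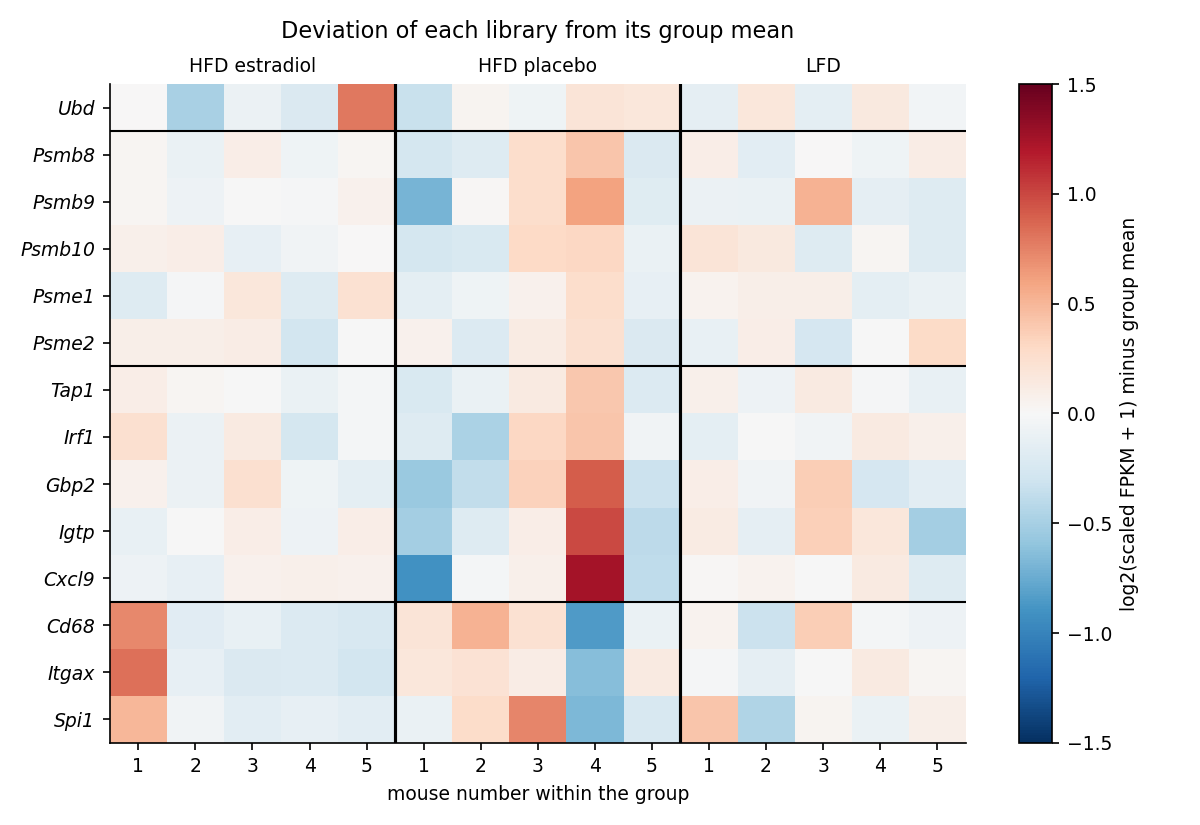
Deviation of log2(scaled FPKM + 1) from its group mean for Ubd, the 5 immunoproteasome genes, 5 genes of interferon signalling and antigen processing and 3 myeloid genes, picked after their values were seen, in each of the 15 mice. Red is above and blue below the group mean; HFD placebo mouse 4 is red from Psmb8 to Cxcl9 and blue for Cd68, Itgax and Spi1, and the deepest red of Ubd is HFD estradiol mouse 5.

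Across all 15 libraries the genes most like Ubd in log2(scaled FPKM + 1), leaving out predicted genes and small RNAs, were Slc48a1, Abhd12, Mfge8, Arf1, Adam12, Dcbld2, Abcg1, Maoa, Cstb and Nus1, with Pearson r of 0.96 for the first and 0.94 for the last among 5466 genes ranked. Slc48a1 encodes a heme transporter, Mfge8 a secreted protein that bridges phagocytes to dying cells, and Abcg1 a cholesterol exporter. Psmb8 ranked 562 with r = 0.77, Psmb10 982 with r = 0.62, Psme2 1876, Psmb9 2266 and Psme1 2598 with r = 0.01. When only within-group deviations were compared, the nearest genes were Smad4, Synrg, Cgnl1, Stk25, Pdxdc1, F3, Rb1cc1, Fam13a, Dusp3 and Ttc13, with r of 0.81 to 0.75, and none of the first 10 was among them.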

How the data were processed

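Stranded libraries were made from rRNA-depleted total RNA of periprostatic fat, per the labels' protocols. The submitters' processing notes name STAR, Cufflinks and mm10; their versions, the annotation and the strand setting are not given in the sources used here. What the authors deposited is FPKM per gene symbol, 1 file per mouse. Libraries were scaled by a median-of-ratios factor over 5874 genes above 0 in all libraries with a mean of at least 1 (factors 0.480 to 3.23). The test took the 5625 genes that reached a scaled FPKM of 1 in 5 or more libraries, as log2(scaled FPKM + 1) with limma 3.58.1 in R 4.3.3, using trend and robust moderation, and the fit held all 15 libraries and the group as its one factor. P-values were adjusted by the Benjamini-Hochberg method over these genes, with 0.05 as the threshold. Folds on that scale understate changes of low genes. Subunit ratios were compared by exact permutation tests in scipy 1.17.1.

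The lane of each library comes from its file's name. Depth was estimated from whole multiples among the lowest values, with 58.0% to 70.0% of such values at most 2% from one (multiples up to 4). These shares are too low to recover reads, so no counting interval is given. The members and gene lists were chosen with earlier results of these data known. Named list genes are the up to 4 per list with the smallest adjusted p in HFD estradiol minus HFD placebo, together with the genes a count is about. The macrophage list used Emr1, an older symbol of Adgre1. Tested markers of several cell types were few: 2 dendritic, 1 neutrophil, 2 B and plasma, 0 T and NK cell and 0 prostate or epithelial genes. The B and plasma cell genes did not pass in HFD estradiol minus HFD placebo. All 6 endothelial and all 4 smooth muscle and pericyte markers were tested. The procedure was tested on simulated data. Alternatives were other scalings, a pseudocount of 0.1, no filter, lane as a term, single lanes, the replicate number as a block, plain moderation, and leaving out libraries.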

Additional observations from a re-analysis of the deposited data

Results flagged for a closer look

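In 5 of 36 groups of 5 mice checked, the highest mouse stood apart from the others by more than the 95% critical share of Dixon's test, where chance gives about 1 in 20 groups. For Ubd this was HFD estradiol mouse 5, at 3.28 scaled FPKM, and without it the difference HFD estradiol minus HFD placebo was -2.70 and HFD estradiol minus LFD was 0.74, both still called. For Psmb9 it was LFD mouse 3, at 1.80. For the ratio of Psmb9 to Psmb6 it was HFD estradiol mouse 1, at 0.258, and LFD mouse 3, at 0.268. For the ratio of Psmb10 to Psmb7 it was HFD estradiol mouse 1, at 0.489.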

How the results depend on the processing

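The fall of Ubd in HFD estradiol relative to HFD placebo kept its call in all 24 alternatives, from -3.11 with a pseudocount of 0.1 to -2.38. In that comparison, genes called numbered 276 on FPKM as deposited, 830 with a constant sum, 2607 without a filter, 711 with lane as a term and 681 in lane 6, against 1711. Of the 6 genes 1 was called, in place of 2, under those settings, with the replicate block, and without HFD placebo mice 4 and 5 (chosen after seeing the data), and 1 to 2 on leaving out a library. In HFD estradiol minus LFD, genes called were 39 as deposited and 161 with lane, with 0 of the 6 genes each, against 433. In HFD placebo minus LFD, 3908 genes were called without a filter, against 2432. Higher calls were 47.2%, 51.5% and 49.3% of calls in HFD estradiol minus HFD placebo, HFD estradiol minus LFD and HFD placebo minus LFD, but 4.71%, 100% and 99.4% as deposited, with medians over all genes of -0.27, 0.49 and 0.77, and 260 of 830, 555 of 584 and 2107 of 2301 with a constant sum.

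Signs turned for small differences of single genes. In HFD estradiol minus HFD placebo these were Psmb9 (-0.19 as deposited, -0.091 with lane and in lane 6, -0.054 to 0.27 leaving out a library), Psmb7 (-0.32 as deposited, -0.039 with a constant sum, -0.10 with lane and in lane 6, -0.027 to 0.11 leaving out a library) and Psme1 (0.018 without HFD placebo mice 4 and 5, -0.085 to 0.038 leaving out a library). In HFD estradiol minus LFD, as deposited and with a constant sum, Psme1 was 0.64 and 0.28, Psme2 0.46 and 0.20, Psmb6 0.65 and 0.31, and Psmb7 0.53 and 0.18. With lane, Psmb9 was -0.095, Psmb5 -0.26 and Psmb6 0.13, and leaving out a library gave Psmb5 -0.032 to 0.10, Psmb6 -0.077 to 0.022 and Psme2 -0.13 to 0.0042. In HFD placebo minus LFD, Psme1 was 1.01 and 0.37 and Psmb7 0.84 and 0.22 under these scalings, and Psmb9 was -0.00357 with lane, in lane 5 and without HFD placebo mice 4 and 5, and -0.014 to 0.31 leaving out a library. Of the called genes named here, cell type markers aside, Ubd, Irf8, Spi1 and Tnfrsf1b kept their calls in HFD estradiol minus HFD placebo on FPKM as deposited, and the others lost them. The causes were not tested.

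Same-numbered libraries of different groups deviated together little (correlations of -0.21 to 0.36 over 15 pairs, 5 over 0.1). Their median was 0.032, against -0.024 for libraries of different numbers. The numbers were not treated as pairs in the main fit, though these correlations cannot exclude a pairing. With the replicate block Psmb8 in HFD estradiol minus HFD placebo missed the threshold (adjusted p = 0.051), and the sign-flip test of Psmb10 to Psmb7 in HFD estradiol minus LFD gave 0.58 (adjusted exact p = 0.38); 5 pairs cannot give a p below 0.0625, so this test could not pass. Leaving out a library, the ratios ran from 0.45 to 0.65 for Psmb10 to Psmb7 and 0.48 to 0.80 for Psmb9 to Psmb6 in HFD estradiol minus LFD, and 0.33 to 1.04 for Psmb9 to Psmb6 in HFD estradiol minus HFD placebo. For Psmb8 to Psmb5 they ran from -0.37 to -0.11 in HFD estradiol minus HFD placebo and 0.12 to 0.37 in HFD estradiol minus LFD, and for Psmb10 to Psmb7 from -0.35 to -0.12 in HFD estradiol minus HFD placebo. Depth limits Ubd in LFD.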
